A study of Mus musculus with 5 samples.

Results

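The opioid system of the mouse dentate gyrus (DG) was followed through 8 genes, chosen by symbol from the 23420 gene symbols in the files. They are the precursor genes Penk, Pdyn, Pnoc and Pomc and the receptor genes Oprm1, Oprd1, Oprk1 and Oprl1. All 8 symbols were found. Of these genes 6 had a mean value of at least 5 over the libraries, the level at which a gene is called expressed here, as did 13550 of all 23420 genes. Pomc, with a mean of 4.96, and Oprm1, with a mean of 2.89, fell short of it.

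The tissue was the microdissected DG of wild-type male mice of the outbred CD1 strain, 4 months old by the labels, after 4 weeks in one of 3 kinds of housing. Locked disk (LD) mice lived alone with a disk that could not turn, mice of the complex environment (CE) lived in social groups with a locked disk and tunnels, and Exercise (RUN) mice lived alone with a running disk. CE therefore differed from LD in company as well as in tunnels, and from RUN in company, tunnels and the disk. Each of these groups gave 1 library of RNA pooled from 8 mice. The low runners (L-RUN) and high runners (H-RUN) libraries each held RNA pooled from 4 mice, and both were made from the same 8 runners as RUN. The runners were split by distance after they had run, so L-RUN and H-RUN are not assigned treatments, and RUN is not an independent library of a running group.

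Opioid peptides are cut from larger precursor proteins by proteases that cleave at pairs of basic residues. They act on 4 related receptors that couple to inhibitory G proteins, lower cyclic AMP, open inwardly rectifying potassium channels and close calcium channels. In the hippocampus enkephalins are known for acting on the mu and delta receptors of inhibitory interneurons, which releases principal cells from inhibition. Dynorphins are stored in the mossy fibres of the granule cells and act on the kappa receptor, and nociceptin acts on a receptor of its own.

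The 4 precursor genes carry these peptides in different numbers. Searched in the GENCODE M21 coding sequence, Penk held 7 enkephalin cores in 268 codons, 6 that end in methionine and 1 that ends in leucine. Pdyn held 3 leucine cores in 248 codons and Pomc held 1 methionine core in 235 codons. Pnoc held none in 187 codons but 1 core in which phenylalanine takes the place of the leading tyrosine. The cores are shown because they set what a transcript of each gene can yield. Each is read 5′ to 3′ on the gene's own strand, with the core in capitals and the 2 codons on each side in lower case, at positions of GRCm38 (mm10).
Penk core 1 (chr4:4134334-4134348, minus strand): aagaagTACGGAGGCTTCATGaaacgg
Penk core 2 (chr4:4134313-4134327, minus strand): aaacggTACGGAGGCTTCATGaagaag
Penk core 3 (chr4:4134226-4134240, minus strand): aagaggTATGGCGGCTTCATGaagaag
Penk core 4 (chr4:4134073-4134087, minus strand): aagaggTATGGGGGCTTCATGagaagc
Penk core 5 (chr4:4134001-4134015, minus strand): aagcgcTACGGGGGCTTCATGagaagg
Penk core 6, the leucine core (chr4:4133941-4133955, minus strand): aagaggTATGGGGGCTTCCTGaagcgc
Penk core 7 (chr4:4133848-4133862, minus strand): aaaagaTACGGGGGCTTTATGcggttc
Pdyn core 1 (chr2:129688238-129688252, minus strand): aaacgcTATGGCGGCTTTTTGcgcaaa
Pdyn core 2 (chr2:129688130-129688144, minus strand): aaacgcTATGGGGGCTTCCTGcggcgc
Pdyn core 3 (chr2:129688073-129688087, minus strand): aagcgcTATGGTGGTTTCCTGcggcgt
Pnoc core (chr14:65404881-65404892, minus strand): aaaaggTTTGGGGGCTTCaccggg
Pomc core (chr12:3960373-3960387, plus strand): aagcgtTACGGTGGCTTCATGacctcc

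All 12 cores followed 2 codons for lysine or arginine. A pair of such codons also followed 5 of the Penk cores and all 3 Pdyn cores, whereas Penk cores 4 and 7 were followed by 1 basic codon and those of Pnoc and Pomc by none. The Penk cores lie in exon 2 of 2, the Pdyn cores in exon 4 of 4, the Pnoc core in exon 3 of 4 and the Pomc core in exon 4 of 4, all within coding sequence. The deposited values are 1 per gene and do not distinguish transcripts or peptides.

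All values are regularized log (rlog) values, which are normalized counts on the log2 scale that DESeq2 shrinks towards a gene's mean. Shrinkage is stronger for genes with few reads, so the differences of low genes are understated. No group had a replicate library, so no test was possible and no p-value is given. As a guide to error, the value of RUN was set against that of L-RUN and H-RUN mixed in equal parts, since it holds RNA of the same mice. Over expressed genes this gave a technical SD of a difference of 0.0365, which ranged from 0.022 to 0.047 between deciles of expression. It covers library preparation and sequencing and not the differences between mice. A gene was called higher or lower at a difference of at least 0.3, the study's own cut-off. The files give no read counts, so the depth of each library is unknown.

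Penk, the precursor of the enkephalins, was the one opioid gene in which the gap between the running libraries and the others passed 2 technical SDs. Its rlog value was 10.46 in LD, 10.52 in CE, 11.37 in L-RUN, 11.29 in H-RUN and 11.32 in RUN. The 3 running libraries were all above both libraries without a running disk, and the difference between H-RUN and CE, the nearest libraries across that divide, was 0.776. Against LD, Penk was higher by 0.905 in L-RUN, 0.834 in H-RUN and 0.855 in RUN, which are ratios of 1.87, 1.78 and 1.81. These differences were 29.4, 27.1 and 27.7 times the technical SD of 0.031 at this level of expression. In CE Penk was 0.058 above LD, a difference of 1.89 technical SDs. Among neighbours in the order of level, which ran from L-RUN through RUN, H-RUN and CE to LD, H-RUN and CE were the only pair to differ by more than 2 technical SDs.

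**Figure D1:**
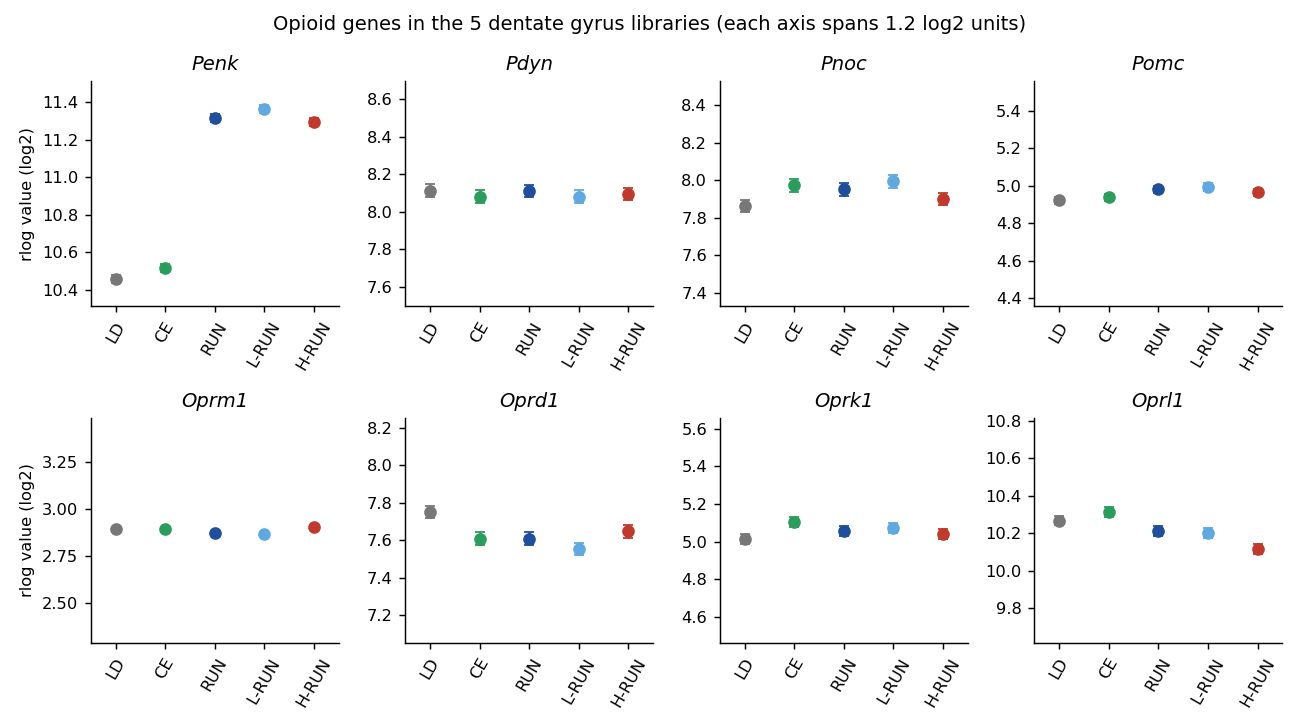
The rlog value (log2) of each opioid gene in the 5 libraries, with 1 point per library and error bars of 1 technical SD of a single library. Every vertical axis spans 1.2 log2 units around the gene's own middle, and Penk is the gene in which RUN (11.32), L-RUN (11.37) and H-RUN (11.29) stand clear of LD (10.46) and CE (10.52).

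Among the 13550 expressed genes, Penk had the second largest positive difference of RUN from LD, the fourth of L-RUN and the largest of H-RUN. In CE its difference was in place 3373 from the top. A further criterion took the shape of the Penk profile described above. It asked for a difference of at least 0.3 above LD in all 3 running libraries, with CE within 0.3 of LD. It was met by 16 expressed genes, a share of 0.118%. Penk headed them, with a smallest difference of 0.834, and Htra4, a secreted serine protease of the HtrA family, came next with 0.527. That Penk met the criterion was given beforehand, so the share is no test of Penk. These libraries are not independent, since the comparisons share LD and RUN shares its mice with L-RUN and H-RUN. Compared directly with CE, Penk was higher by 0.847 in L-RUN, 0.776 in H-RUN and 0.797 in RUN.

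Low and high runners did not differ by 0.3 in Penk. The difference of H-RUN from L-RUN was -0.071, or 2.30 technical SDs. RUN differed by -0.015 from the value of 11.33 computed for the 2 pools mixed in equal parts. The difference of 0.834 in H-RUN thus came from mice other than those behind the 0.905 in L-RUN. Both were measured against the same LD library.

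Pdyn, the precursor of the dynorphins, differed least between libraries relative to its technical SD of 0.047. It had rlog values of 8.11 in LD, 8.08 in CE, 8.08 in L-RUN, 8.09 in H-RUN and 8.11 in RUN. The whole range was 0.032, which is less than 1 technical SD, and the running libraries lay among the others. Penk and Pdyn, the genes for the enkephalins and the dynorphins, therefore had different profiles in the same libraries.

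Pnoc, the precursor of nociceptin, had rlog values of 7.86 in LD, 7.97 in CE, 7.99 in L-RUN, 7.90 in H-RUN and 7.95 in RUN. LD was the lowest library, and the largest difference from it was 0.13 in L-RUN. CE lay between RUN and L-RUN, so running and non-running libraries overlapped, and no pair of neighbours in the order differed by more than 2 technical SDs.

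Pomc, the precursor of beta-endorphin and of the melanocortins, is known mainly from the pituitary and the hypothalamus. Its rlog value was 4.92 in LD, 4.94 in CE, 4.99 in L-RUN, 4.97 in H-RUN and 4.98 in RUN. The running libraries were the 3 highest, but the whole range was 0.072 at a level where shrinkage is strong. With the trend with transcript length removed, the differences from LD were -0.023 in L-RUN, -0.0014 in H-RUN and -0.016 in RUN. That trend was fitted over expressed genes, and Pomc lies below their limit, where shrinkage is stronger. The change of sign therefore cannot be read as a direction of Pomc. Among the 880 genes with a mean within 0.5 of that of Pomc, 1 (0.114%) passed 0.3 in any comparison with LD, so a call was hardly possible at this level. Of the 8 genes listed for hypothalamus and pituitary 1 was expressed, Cartpt. Avp (vasopressin) and Gh (growth hormone), chosen after their values were seen, were 0.29 and 0.28 above LD in L-RUN. The rest of the list differed less there. Cartpt was 0.13 above LD, Prl 0.050, Oxt 0.027 and Agrp and Hcrt 0.0099 each, and Pmch differed by -0.0037.

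Among the receptors, Oprm1, the mu receptor, was the lowest gene of the 8. Its rlog value was 2.89 in LD, 2.90 in CE, 2.87 in L-RUN, 2.90 in H-RUN and 2.87 in RUN, a range of 0.036. Of 713 genes with a mean within 0.5 of it none passed 0.3 in any comparison with LD, and the largest difference among them was 0.111. A difference in Oprm1 was thus not detectable in these values.

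Oprd1, the delta receptor and the other main target of the enkephalins, was highest in LD. Its rlog value was 7.75 in LD, 7.61 in CE, 7.55 in L-RUN, 7.65 in H-RUN and 7.61 in RUN. All 4 other libraries were below LD, with differences of -0.14 in CE, -0.20 in L-RUN, -0.10 in H-RUN and -0.14 in RUN. None of these differences reached 0.3. They were between 2.19 (H-RUN) and 4.17 (L-RUN) times the technical SD of 0.047, and they all rest on the same LD library. CE and RUN differed by 0.0002, so the running libraries were not set apart from CE, and of the neighbours in the order of level LD and H-RUN were the only pair more than 2 technical SDs apart.

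Oprk1, the kappa receptor for the dynorphins, had rlog values of 5.02 in LD, 5.10 in CE, 5.07 in L-RUN, 5.04 in H-RUN and 5.05 in RUN. Its largest difference from LD was 0.09, in CE, and neighbours in the order were within 2 technical SDs of each other. It was barely above the limit for expressed genes, and 1 of the 884 genes within 0.5 of its mean passed 0.3 against LD.

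Oprl1, the nociceptin receptor, had the highest rlog value of the receptors. It was 10.27 in LD, 10.32 in CE, 10.20 in L-RUN, 10.12 in H-RUN and 10.21 in RUN. The running libraries were below both LD and CE, with H-RUN the lowest, and of the neighbours in this order L-RUN and H-RUN were the only pair more than 2 technical SDs apart. The difference of H-RUN was -0.15 from LD, or 4.19 technical SDs, and -0.199 from CE, or 5.50. RUN and L-RUN differed from LD by -0.06 and -0.07. No difference reached 0.3, and the RUN value was 0.053 above the computed mixture, the largest deviation of the 8 genes, so the deviation of RUN was about as large as its difference from LD.

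**Figure D2:**
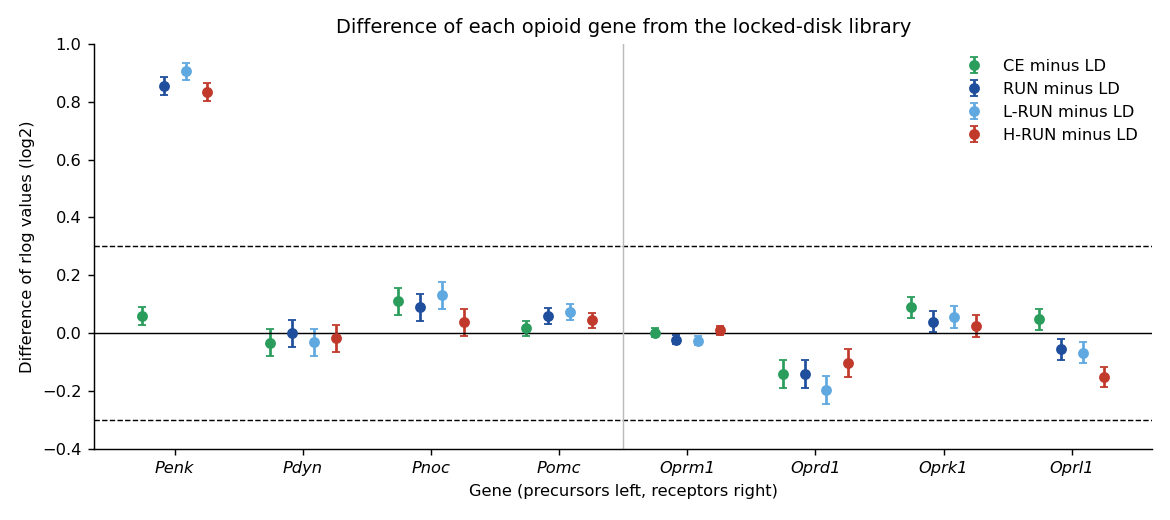
Difference of the rlog value (log2) of each opioid gene from the LD library, in CE, RUN, L-RUN and H-RUN, with error bars of 1 technical SD of a difference. Dashed lines mark 0.3 in either direction, and Penk lies beyond them in RUN (0.855), L-RUN (0.905) and H-RUN (0.834) while the other genes stay between them.

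The counts of opioid genes past the cut-off were set beside those of all expressed genes. In CE against LD, 0 of the 6 expressed opioid genes passed 0.3, where 0.598% of expressed genes did. In RUN against LD it was 1 of 6, Penk, with 1.31% of expressed genes, in L-RUN against LD again Penk with 3.13%, and in H-RUN against LD Penk with 0.827%. Between H-RUN and L-RUN none passed, with 1.54% of expressed genes, and between RUN and CE it was Penk with 0.834%. Genes of the level of Penk were called more often than low ones, 3.71% of 2264 genes in at least 1 comparison with LD, as were 4.43% of 1670 genes of the level of Pdyn and 4.82% of 2511 of the level of Oprl1. The level of these genes thus left room for a call.

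As a list the 6 expressed opioid genes lay near the other genes. Their median difference from LD was 0.05 in CE, 0.01 in L-RUN, 0.003 in H-RUN and 0.02 in RUN, beside medians over all expressed genes between -0.0035 and -0.0013. Without Penk the largest difference in size was 0.142 in CE, 0.196 in L-RUN, 0.152 in H-RUN and 0.141 in RUN.

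**Figure D3:**
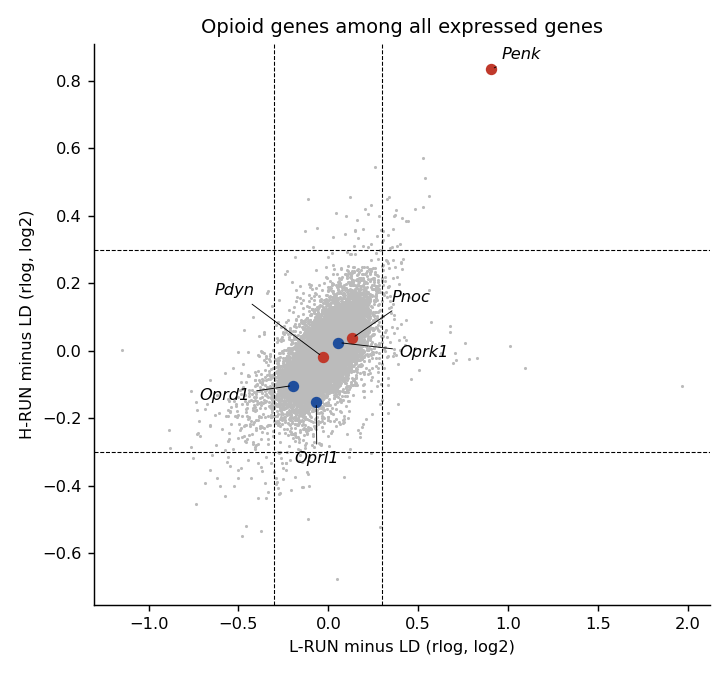
Each expressed gene is a point placed by its difference (rlog, log2) of L-RUN from LD on the horizontal and of H-RUN from LD on the vertical axis, with the 6 expressed opioid genes labelled (red for precursors, blue for receptors) and dashed lines at 0.3. Both axes share the LD library, and Penk lies at 0.905 and 0.834, away from the other 5 opioid genes, which lie inside the dashed lines.

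Levels of different genes can be set side by side only per length. For this, log2 of the length in kb of the longest annotated transcript was subtracted from the rlog value. Penk had the highest mean level per kb (10.46), followed by Oprl1 (8.59), Pdyn (6.84), Pnoc (6.83), Oprd1 (5.63), Pomc (4.90), Oprk1 (2.83) and Oprm1 (1.61). Pdyn and Pnoc were not distinguished by these means. With the median transcript length of each gene the order was the same, but the level of Pdyn was 8.72. How far Pdyn stood above Pnoc therefore depended on the transcript length used.

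On the linear scale per kb, Penk was 8.38 times the level of Pdyn in LD and 8.93 times in CE. In the running libraries it was 16.1 times in L-RUN, 15.1 times in H-RUN and 15.2 times in RUN. Of the level per kb summed over the 4 precursors, Penk made up 79.4% in LD and 79.6% in CE, and 87.4% in L-RUN, 87.2% in H-RUN and 87.1% in RUN. Among the receptors Oprl1 made up between 85.6% and 87.4% of the sum in every library. The precursor shares thus differed between running and non-running libraries, which restates the difference of Penk. The share of Oprl1 stayed within 2 percentage points. Since Oprl1 dominates that sum and Oprk1 and Oprm1 are strongly shrunk, a change in the receptor mix could hardly show. With median transcript lengths the ratio of Penk to Pdyn was lower, at 3.04 in LD and 3.23 in CE and between 5.48 and 5.81 in the running libraries, and the share of Penk among the precursors was 68.8% in LD, 69.6% in CE and 79.7% to 80.3% in the running libraries.

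**Figure D4:**
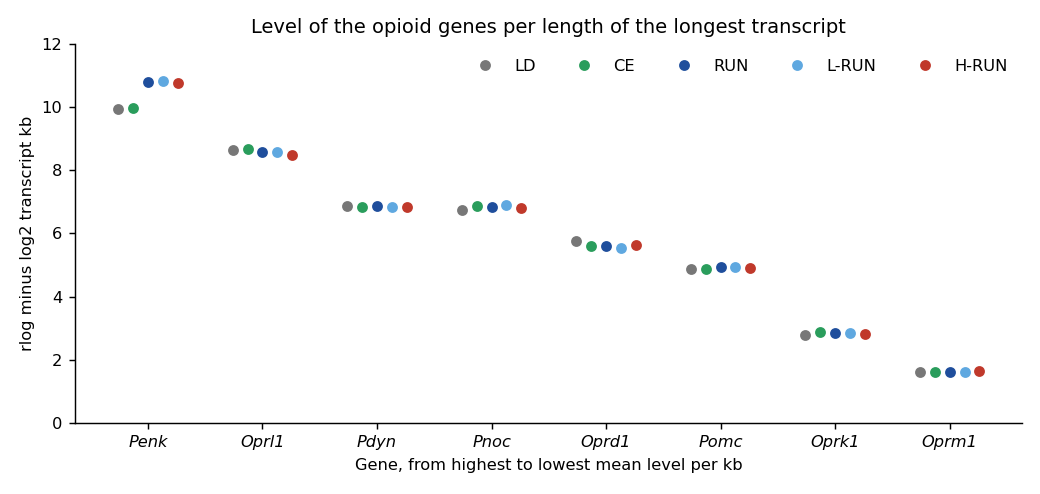
The rlog value minus log2 of the length in kb of the longest transcript, for the 8 opioid genes ordered by their mean, with 1 point per library. Penk is on top (mean 10.46) and Oprm1 at the bottom (1.61), and the 3 running libraries lie above LD and CE for Penk, a gap not seen for Oprl1, Pdyn or Pnoc.

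The genes lie on 6 chromosomes of GRCm38 (GENCODE M21). Penk is at chr4:4133531-4138819 on the minus strand, with 2 exons and a longest transcript of 1449 bases. Pdyn is at chr2:129686565-129699844 (minus), Pnoc at chr14:65400673-65425472 (minus) and Pomc at chr12:3954951-3960642 (plus). Oprm1 is at chr10:6758506-7038198 (plus) and has 31 annotated transcripts, Oprd1 is at chr4:132110726-132144486 (minus), Oprk1 at chr1:5588466-5606131 (plus) and Oprl1 at chr2:181715016-181720985 (plus). The exons of Penk share 233 of 1634 bases with the antisense gene A830012C17Rik, which has no value in the files, and those of Oprm1 share 96 of 8037 with Ipcef1. The sources used here do not state whether counting used the strand, so reads from these overlaps cannot be assigned with certainty. The other 6 genes overlap no exon of another gene.

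Genes that process, break down or transmit opioid peptides were described through 5 lists of 58 genes, of which 57 were expressed. Against LD, 0 were higher and 2 lower in CE, 2 higher and 1 lower in RUN, 1 higher and 5 lower in L-RUN, and 1 higher and 0 lower in H-RUN. In CE, 3.51% of the 57 genes were called in either direction, beside 0.598% of all expressed genes. The share was 5.26% beside 1.31% in RUN, 10.5% beside 3.13% in L-RUN and 1.75% beside 0.827% in H-RUN. It was above that of all expressed genes in each comparison, on counts of 1 to 6 genes. The lists were chosen with earlier results of these data known, so these shares cannot serve as a test of the lists. In CE the count was 0 at a cut-off of 0.4 or with the trend with transcript length removed.

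None of the 10 genes of precursor processing, among them Pcsk1 and Pcsk2 (the convertases that cut at basic pairs) and Cpe (the carboxypeptidase that trims the cut ends), passed 0.3 against LD. Their median difference was 0.03 in CE, -0.05 in L-RUN, 0.03 in H-RUN and 0.03 in RUN. Pcsk1 was lower in RUN than in CE, by a difference of -0.32, with rlog values of 7.56 in LD, 7.79 in CE, 7.40 in L-RUN, 7.47 in H-RUN and 7.46 in RUN, and was chosen after its values were seen. All 3 running libraries were lower than both LD and CE for this gene. H-RUN differed from LD by only -0.086, within 2 technical SDs (1 SD is 0.044), and CE was itself 0.23 above LD.

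Of the 10 genes that break peptides down, Lnpep, a membrane aminopeptidase that cleaves several neuropeptides, was the gene called. The libraries gave it 9.15 in LD, 8.80 in CE, 8.43 in L-RUN, 8.94 in H-RUN and 8.68 in RUN. Its difference from LD was -0.35 in CE, -0.46 in RUN and -0.72 in L-RUN, and -0.21, short of the cut-off, in H-RUN. LD was thus its highest library and L-RUN its lowest, without a split between running and non-running libraries. Mme (neprilysin) and Ace, peptidases that can degrade enkephalins, stayed within 0.3 of LD, with differences of -0.23 and 0.17 in L-RUN.

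Of the 15 G proteins and effectors 14 were expressed, and 4 were called in L-RUN, all lower, beside 3.13% of all expressed genes called in either direction. Kcnj3 and Kcnj6, subunits of the potassium channel that opioid receptors open, differed from LD by -0.45 and -0.49 there. Cacna1b, the pore of the N-type calcium channel, differed by -0.32 and Adcy1, a calcium-stimulated adenylyl cyclase, by -0.37. Adcy1 was also lower in CE, by a difference of -0.30. In H-RUN the differences of these 4 genes were -0.07, -0.09, -0.08 and -0.07 in the order named, so their lower values were seen in L-RUN and not at this size in H-RUN. The longest transcripts of Adcy1 and Lnpep, of 12259 and 12052 bases, are long, and differences in these libraries varied with transcript length. With that trend removed, the differences in L-RUN were -0.57 for Lnpep, -0.48 for Kcnj6 and -0.39 for Kcnj3, and those of Adcy1 (-0.22) and Cacna1b (-0.19) no longer passed 0.3. In CE neither Lnpep (-0.27) nor Adcy1 (-0.23) passed it then.

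Among the 12 genes of receptor desensitization, Rgs4 was called. It encodes a protein that speeds up GTP hydrolysis by inhibitory G proteins and so ends their signal. Rgs4 had rlog values of 12.03 in LD, 12.01 in CE, 12.41 in L-RUN, 12.45 in H-RUN and 12.40 in RUN. As with Penk, all 3 running libraries were above LD and CE, with differences from LD of 0.38 in L-RUN, 0.42 in H-RUN and 0.37 in RUN. The beta-arrestin genes Arrb1 and Arrb2 stayed within 0.3.

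Of 11 factors known to act at Penk or Pdyn, Kcnip3 (DREAM, a calcium-binding repressor of Pdyn) was the gene called. Kcnip3 had rlog values of 11.23 in LD, 11.40 in CE, 11.52 in L-RUN, 11.53 in H-RUN and 11.55 in RUN. It was 0.32 above LD in RUN and 0.289 in L-RUN and 0.298 in H-RUN, just short of the cut-off, with CE 0.17 above LD. Fos, Fosb, Jun, Creb1 and the other members stayed within 0.3, and the difference of Fos was -0.15 in RUN.

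**Figure D5:**
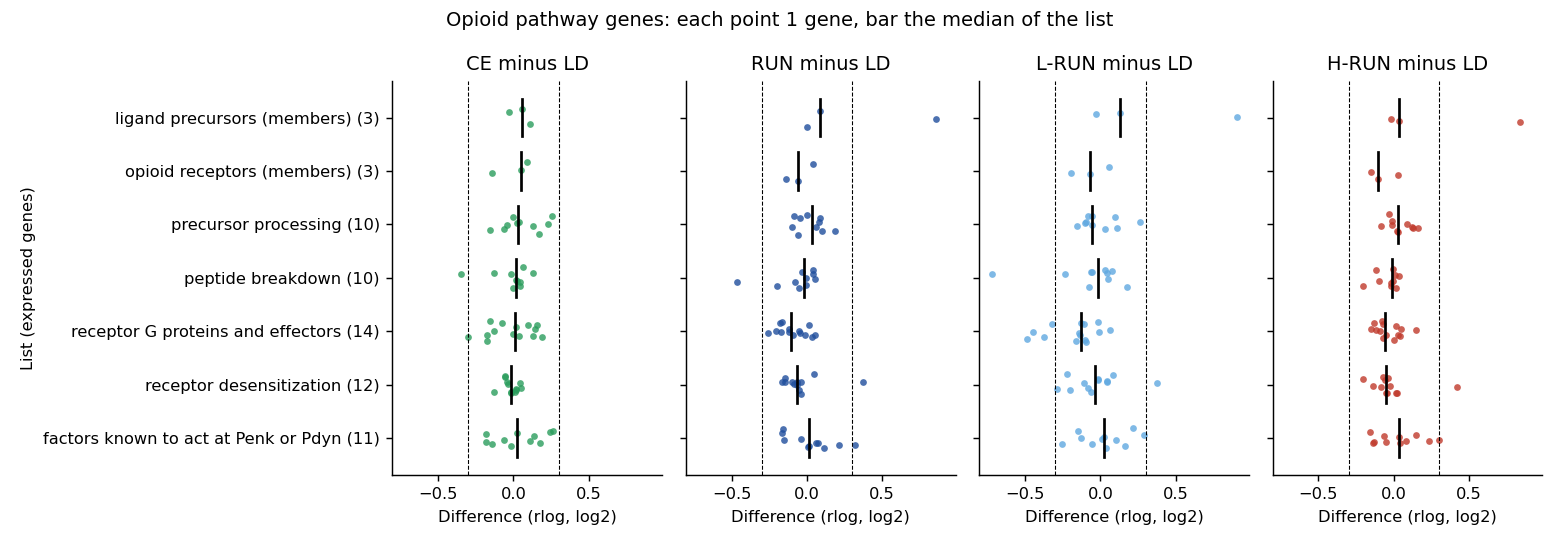
Difference from LD (rlog, log2) of each expressed opioid gene and pathway gene in CE, RUN, L-RUN and H-RUN, with 1 point per gene, a bar at the median of each list and dashed lines at 0.3. List medians lie between -0.13 (G proteins and effectors) and 0.13 (precursors), both in L-RUN. Penk is the point far to the right among the precursors in RUN (0.855), L-RUN (0.905) and H-RUN (0.834).

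The genes whose profile over the 5 libraries was most like that of Penk were taken from the 694 expressed genes with a range of at least 0.3. By Pearson's r over 5 libraries, these were 1500012F01Rik (0.996), Agmat (0.994), Robo3 (0.994), Htra4 (0.993) and Serinc2 (0.992). Robo3, a receptor of the Roundabout family for axon guidance, was 0.46, 0.52 and 0.43 above LD in RUN, L-RUN and H-RUN and differed by -0.03 in CE. Htra4 was 0.54, 0.53 and 0.57 above LD in the same libraries. All 5 had smaller differences than Penk, and the measure compares shape and not size. Points share the library in which they were measured. Of the pathway genes in this set, Rgs4 came in place 8 (0.989) and Kcnip3 in place 42 (0.899). The others had negative r, namely Adcy1 (-0.29), Kcnj3 (-0.52), Kcnj6 (-0.62), Lnpep (-0.64), Pcsk1 (-0.81) and Cacna1b (-0.81).

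The libraries were of pooled bulk RNA, so more cells that express a gene and more RNA per cell cannot be told apart. The granule cells of the DG were well represented, with 11 of 11 markers expressed. The log2 of their summed level was 15.67 in LD, 15.52 in CE, 15.59 in L-RUN, 15.62 in H-RUN and 15.60 in RUN, so it was not higher in the running libraries than in LD. C1ql2, a marker of this list, was higher by 0.37 in L-RUN, 0.40 in H-RUN and 0.37 in RUN, and Plk5 by 0.36 in L-RUN. Prox1, the factor that defines granule cells, was lower in L-RUN, by a difference of -0.41.

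Markers of interneurons, some of which also express Penk or Pnoc, had summed levels (log2) of 14.30 in LD, 14.37 in CE, 14.33 in L-RUN, 14.28 in H-RUN and 14.31 in RUN, with 10 of 10 expressed. Sst was 0.34 higher in CE and 0.30 in L-RUN, and Adarb2 was lower in L-RUN, by a difference of -0.41.

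Of 8 markers of striatal projection neurons, among the richest sources of Penk in the brain, 7 were expressed. Their summed level (log2) was 11.11 in LD and 11.09 in CE, and 11.16 in L-RUN, 11.16 in H-RUN and 11.15 in RUN. The running libraries were the 3 highest in this sum, in which Ppp1r1b (mean 9.74) and Rgs9 (mean 9.28) had the highest levels. The list's median difference from LD was 0.03 in CE, 0.06 in L-RUN, 0.01 in H-RUN and -0.0025 in RUN. Whether striatal tissue contributed to the Penk values was not tested. Adora2a, a marker of the striatal neurons that express Penk, differed from LD by 0.06 in L-RUN, 0.03 in H-RUN and 0.01 in RUN, and Gpr6, a further one, had a mean of 3.08. The mean of Adora2a was 5.19, near that of Oprk1, around which 1 of 884 genes passed 0.3 against LD. Shrinkage therefore limits what Adora2a and Gpr6 could show. Drd1a, the dopamine receptor gene of the other striatal neurons and also expressed in granule cells, was higher in RUN (0.35) and H-RUN (0.43), with a difference of 0.24 in L-RUN.

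Markers of the leptomeninges, the membranes on the brain surface, were higher as a list in L-RUN and not in H-RUN. RUN, which holds RNA of both pools, lay between them and does not count as a further running library. Of 12 markers, all expressed, 3 were called higher in CE, 7 in RUN and 9 in L-RUN, while in H-RUN 0 were higher and 2 lower. Of all expressed genes 0.598%, 1.31%, 3.13% and 0.827% were called in either direction in these comparisons. The list's median difference from LD was 0.13 in CE, 0.65 in L-RUN, -0.02 in H-RUN and 0.37 in RUN, and its summed level was 11.78 in LD, 11.96 in CE, 12.40 in L-RUN, 11.59 in H-RUN and 12.03 in RUN. Penk was 0.905 above LD in L-RUN, where this list was highest, and 0.834 in H-RUN, where it was lowest. Markers of CA1 pyramidal cells had summed levels of 11.90 in LD, 12.05 in CE, 11.55 in L-RUN, 11.80 in H-RUN and 11.69 in RUN. Of the 6 CA1 markers Fibcd1 was called in all comparisons with LD, higher in CE (0.31) and lower in RUN (-0.46), L-RUN (-0.46) and H-RUN (-0.52). In L-RUN Wfs1 (-0.33) and Pou3f1 (-0.42) were called lower as well, whereas in H-RUN their differences were 0.18 and 0.10. The median difference of the list was 0.03 in H-RUN and -0.31 in L-RUN. The summed levels of the other lists ranged between libraries from 12.04 to 12.19 for mossy cells, 15.38 to 15.43 for CA3 and CA2 pyramidal cells, 10.16 to 10.36 for thalamus and habenula, 9.52 to 9.75 for choroid plexus, 14.69 to 14.91 for oligodendrocytes, 15.02 to 15.20 for astrocytes and 11.87 to 11.99 for microglia. Markers of these lists called against LD were Ttr in CE (0.62) and Prkcd in CE (-0.40) and L-RUN (-0.37). Bok in H-RUN (0.41) and Slc1a3 in L-RUN (-0.30) were called as well. Of the 8 choroid plexus markers 2 were expressed. Of 5 blood cell markers 3 were in the files and none was expressed. The part of any of these cell types in the opioid values was not tested.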

How the data were processed

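RNA of 5 pools of mouse DG was sequenced as 1 library each, after poly-A selection. Per the submitters' processing notes and the methods, the authors used CASAVA 1.8.2, mapped reads to mm10 with TopHat2 2.0.10, assigned them to RefSeq genes with HTSeq and normalized all libraries at once with DESeq2 1.10.1. The authors deposited rlog values on the log2 scale, with 1 value for each gene in a library. These were used as they are. Shrinkage could not be undone, no counts were at hand and precision from depth is unknown.

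Differences were taken between libraries, with a cut-off of 0.3. The technical SD came from the median absolute deviation of RUN minus the log2 average of the L-RUN and H-RUN values made linear, per decile of expression. If all libraries are equally noisy, this residual has 1.5 times the variance of 1 library, and a difference has 2 times that variance. Genes with a mean below 5 had deciles of their own. Positions, lengths and coding sequences came from GENCODE M21, by symbol, and cores were found by translating the longest coding sequence. All 8 members and, of the pathway lists, every gene called against LD were named, with the 5 genes most like each member whose range was at least 0.3. Members and lists were chosen with earlier results of these data known. Scripts were tested on simulated data. Alternatives were a cut-off of 0.4, median centring, quantile normalization, a minimum mean of 7 or none, LD and CE averaged as baseline, removal of a lowess trend with length (fraction 0.3, 94.2% of expressed genes with a length), another mixture and the median transcript length. Scripts ran in python 3.11.15 with pandas 2.3.3, numpy 2.4.6, statsmodels 0.14.6 and matplotlib 3.10.9.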

Additional observations from a re-analysis of the deposited data

How the results depend on the processing

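The number of opioid genes past the cut-off was the same under all alternatives run for it, 40 values in all. The differences past 0.3 were those of Penk, in RUN, L-RUN and H-RUN against LD and in RUN against CE. None of these changed sign under the alternatives, and with Penk left out 0 of 154 differences passed 0.3. Smaller differences could change sign. With LD and CE averaged as baseline, Pnoc in H-RUN went from 0.037 to -0.018 and Oprk1 in RUN from 0.039 to -0.0049. With the trend with transcript length removed, Penk differed from LD by 0.022 in CE, 0.833 in L-RUN, 0.80 in H-RUN and 0.797 in RUN, each lower than the main value by more than 1 technical SD. Over all alternatives Penk was 0.797 to 0.870 above LD in RUN, 0.833 to 0.933 in L-RUN and 0.80 to 0.838 in H-RUN. At a cut-off of 0.4 the expressed genes called against LD numbered 25 in CE, 184 in L-RUN, 38 in H-RUN and 52 in RUN, instead of 81, 424, 112 and 178. Against the mean of LD and CE they numbered 2 in CE, 84 in RUN and 273 in L-RUN, and with the length trend removed 111 in RUN and 281 in L-RUN. At 0.4 it was 81 between H-RUN and L-RUN, instead of 208, and 34 between RUN and CE, instead of 113. Of 40 counts of pathway genes 11 moved by more than 1.5 times. At 0.4 they were 0 in CE, 1 in RUN and 3 in L-RUN instead of 2, 3 and 6, 1 between H-RUN and L-RUN instead of 4, and 0 between RUN and CE instead of 2. Against the average of LD and CE they were 0 in CE and 1 in RUN, with the length trend removed 0 in CE, and with quantile normalization 1 in CE. In H-RUN median centring and quantile normalization each gave 2 instead of 1. The differences of Oprd1 shrank to -0.13 in L-RUN, -0.03 in H-RUN and -0.07 in RUN when LD and CE were averaged as baseline. With the mixture taken as the mean of log values, 1 gene in place of 0 deviated by 0.3 or more in RUN. No paired analysis was possible because each group had 1 library. Depth is unknown, and for Pomc, Oprm1 and Oprk1 shrinkage limits what could be seen.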
